A study of Saccharomyces cerevisiae with 8 samples.

Results

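Amino acid permeases are the plasma membrane proteins through which yeast takes up amino acids, and 10 of their genes were followed here across growth in liquid and on solid medium: GAP1, AGP1, GNP1, BAP2, BAP3, TAT1, TAT2, LYP1, MUP1 and DIP5. They were chosen by name, all 10 were found among the 6532 entries of the deposited count table, and all 10 passed the filter on low counts that left 5930 genes for testing. The samples were colonies harvested after 2, 3 and 4 days on solid medium (Day 2, Day 3, Day 4) and cells in mid log phase in liquid culture (Log phase), from which the colonies had been started, with 2 libraries per group and 8 in all. Every group was the wild-type haploid BY4741 (MATa his3Δ1 leu2Δ0 met15Δ0 ura3Δ0), a laboratory strain that must take up histidine, leucine, methionine and uracil from its medium. The assay, PAT-seq, reads polyadenylated RNA from its 3′ end, including part of the poly(A) tail. Each RNA gives 1 read whatever its length, so that levels of different genes could be set beside each other as CPM, counts scaled to a common library size.

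Amino acid permeases are membrane proteins of many transmembrane segments that carry amino acids inward together with protons. Yeast tunes them to its nitrogen supply. Good nitrogen sources shut off the general permease gene GAP1, which GATA-type transcription factors switch on when nitrogen is poor, while amino acids outside the cell are sensed by the SPS complex (Ssy1, Ptr3 and Ssy5), which releases the transcription factors Stp1 and Stp2 to induce more specific permease genes. At the cell surface, permeases are removed by ubiquitination through the ligase Rsp5 and its arrestin adaptors, so that mRNA levels alone do not give transport.

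The upstream sequences of GAP1 and AGP1, the pair of genes with the largest changes on Day 2, are shown first because they alone among the 10 held GATAAG, the core motif of GATA factors. The 600 bases before each start codon were searched on both strands in the R64 genome, where every member lay at the position the deposited gene table gives. GAP1 (chrXI:515063-516871, plus strand) had 5 matches and AGP1 (chrIII:76018-77919, minus strand) had 2, and the other 8 genes had none. Among those 8, DIP5 rose more than AGP1 by counts on Day 3 and Day 4, and GNP1 fell on Day 4 by more than AGP1 rose. Of 5999 promoters of the same length, 26.8% held at least 1 match, 4.92% at least 2 and 0.117% at least 5. Each match is printed 5′ to 3′ on the gene's strand with its distance from the start codon, and capitals mark the motif, which reads CTTATC where it lies on the opposite strand.
GAP1, 549 bases before, chrXI:514502-514531: ttcagccgatcgCTTATCtgctcactagaa
GAP1, 469 bases before, chrXI:514582-514611: ccatttccttttGATAAGgggtcgttggtg
GAP1, 343 bases before, chrXI:514708-514737: gatttggtaactGATAAGattgttaaatgt
GAP1, 293 bases before, chrXI:514758-514787: acgtccgattagCTTATCttctggagcaac
GAP1, 242 bases before, chrXI:514809-514838: taaattaaacatGATAAGcgcatagttggg
AGP1, 429 bases before, chrIII:78331-78360: catcgagtcataGATAAGcaggttgcagta
AGP1, 253 bases before, chrIII:78155-78184: caaatcaatcctGATAAGacggctaagatg

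A second pair of motifs was searched in the same windows. CGGC, the core of the sites bound by Stp1 and Stp2, was found in all 10 members, from 3 matches in TAT2 to 10 in MUP1, whereas 75.3% of all promoters held at least 1 and 25.0% at least 3. TGACTC, the motif of the amino acid starvation factor Gcn4, had 2 matches in MUP1 and 1 each in AGP1 and BAP2, and 15.3% of all promoters held at least 1. No match of 1 motif overlapped a match of another in the members' windows. These matches describe letters in a window and no binding was measured.

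The other 8 genes lay at chrIV:1466453-1468444 (GNP1, minus strand), chrII:373861-375690 (BAP2, minus), chrIV:548762-550576 (BAP3, minus), chrII:376574-378433 (TAT1, minus), chrXV:286172-287950 (TAT2, plus), chrXIV:138550-140385 (LYP1, plus), chrVII:599417-601141 (MUP1, plus) and chrXVI:41043-42869 (DIP5, plus). TAT1 and BAP2 were neighbours on the same strand with 883 bases between them. The most alike coding sequences were those of BAP2 and BAP3 at 68.1% identity and of AGP1 and GNP1 at 67.2%, so no member was a near-identical copy of another. The last 30 coding bases of these 4 genes are printed because the reads come from the 3′ end and because, within each pair, the partners differed in their course in colonies. Capitals mark the stop codon.
AGP1, chrIII:76018-76047, minus strand: tggaaaagggtcgttgccttctggtgtTAA
GNP1, chrIV:1466453-1466482, minus strand: tggaaaagagttcttgatttctggtgtTAA
BAP2, chrII:373861-373890, minus strand: atgagaaaagcttatcatttctggtgtTAA
BAP3, chrIV:548762-548791, minus strand: ttcgtcagagtctacaaattttggtgtTAG
The 9 bases before the stop codon, ttctggtgt, were the same in 5 members (GAP1, AGP1, GNP1, BAP2 and TAT2) and occurred there in 6 of 6002 genes of the genome. Over the last 300 coding bases AGP1 and GNP1 were 74.6% identical and BAP2 and BAP3 70.0%.

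Libraries held 6203115 to 8441949 counts, and the members had between 143 and 13414 counts in a library. Whether the replicates came from separate cultures is not stated in the labels, and a p-value here reflects no more than how far these libraries spread, which may be technical. Replicates differed most on Day 2, where the median absolute log2 difference between them was 0.26, against 0.14 to 0.19 in the other groups. Colonies differed from Log phase in medium, in growth form and in age, and these cannot be told apart. Changes are given as log2 fold changes ± SE after TMM normalisation, and a gene is said to have risen or fallen where its adjusted p (edgeR, Benjamini-Hochberg over all genes tested) was under 0.05.

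GAP1, AGP1 and DIP5 mRNA stood higher in colonies on every day, GNP1, MUP1, TAT1 and TAT2 mRNA stood lower on every day, and BAP2, BAP3 and LYP1 had called changes on only some days. On Day 2, 8 of 10 members were called, 3 higher and 5 lower than in Log phase, when 56.5% of all genes tested were called, 28.3% higher and 28.2% lower. On Day 3, 9 members were called, 4 higher and 5 lower, against 68.9% of all genes, 34.5% higher and 34.4% lower. Day 4 gave the same member counts, 4 higher and 5 lower, against 74.2% of all genes, 37.2% higher and 37.0% lower. With 10 genes, the counts are set beside these shares as a description. The median change of the 10 was −0.36, −0.34 and −0.36 on Day 2, Day 3 and Day 4, beside 0.02, 0.01 and 0.01 for all genes. The 3 comparisons share the Log phase libraries. Scaling to total counts alone, which moves the median of all genes against Log phase by 0.38 (Day 2), 0.40 (Day 3) and 0.44 (Day 4), gave 4 members higher and 2 lower on Day 2 and 4 higher and 3 lower on Day 3 and on Day 4. Over all genes that scaling gave 2577 higher and 962 lower on Day 2 (1676 and 1672 with TMM), 2706 and 1438 on Day 3 (2047 and 2038) and 2850 and 1570 on Day 4 (2206 and 2195). GAP1, AGP1, DIP5, GNP1 and MUP1 were called in the same direction on each day under every alternative tried.

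**Figure D1:**
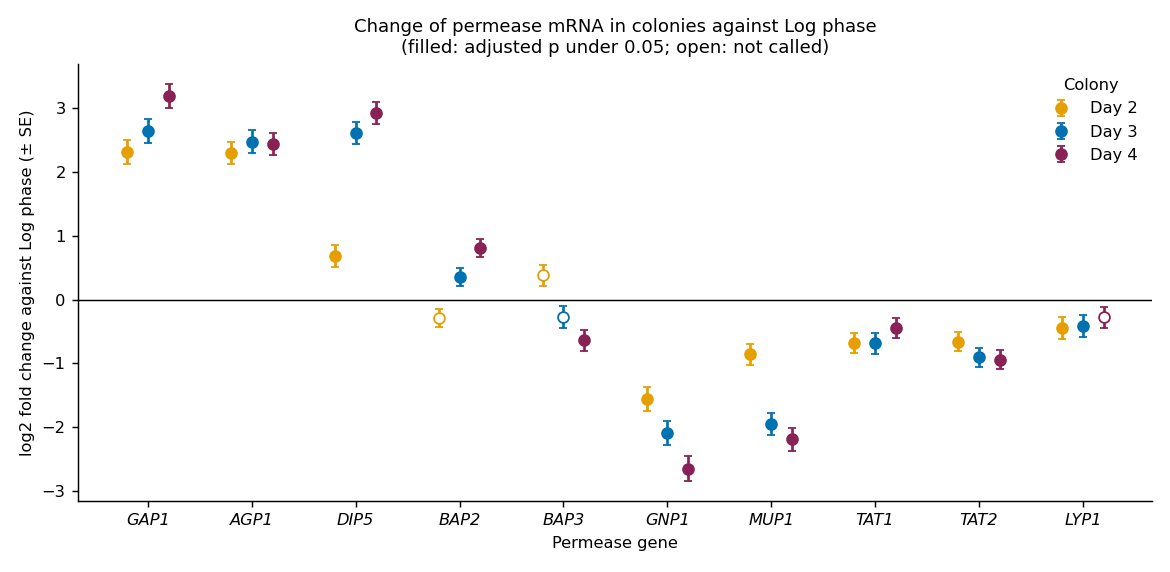
Log2 fold change (± SE) of each permease mRNA on Day 2, Day 3 and Day 4 against Log phase, with filled symbols for adjusted p under 0.05. GAP1, AGP1 and DIP5 lie above 0 on each day, GNP1 and MUP1 lie farthest below it, and BAP2 and BAP3 stand on opposite sides of 0 on each day.

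GAP1 encodes the general amino acid permease, which accepts nearly all amino acids. It had 22.4 and 22.9 CPM in Log phase, 92.2 and 133 CPM on Day 2, 148 and 136 CPM on Day 3 and 224 and 193 CPM on Day 4. Every colony library lay above both Log phase libraries, and no other member had so wide a range of group means, 3.18 on the log2 scale. GAP1 rose by 2.31 ± 0.19 on Day 2 (adjusted p = 4.31e-10), 2.64 ± 0.19 on Day 3 (1.19e-11) and 3.20 ± 0.19 on Day 4 (3.62e-13), or 4.97-fold, 6.25-fold and 9.19-fold. In a colony, a change in the share of cells that make an mRNA and a change in the amount per cell cannot be told apart in bulk RNA.

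AGP1 encodes a broad-range permease with a preference for asparagine and glutamine. Its levels were close to those of GAP1 through Day 3, at 23.4 and 22.6 CPM in Log phase, 97.7 and 129 CPM on Day 2, and 131 and 126 CPM on Day 3, but it stayed at 125 CPM in both Day 4 libraries. AGP1 rose by 2.30 ± 0.17 on Day 2 (adjusted p = 1.69e-10), 2.48 ± 0.17 on Day 3 (1.11e-11) and 2.44 ± 0.17 on Day 4 (1.15e-11). All colony libraries lay above the Log phase libraries, and the Day 2 libraries spanned those of Day 4 and overlapped those of Day 3.

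DIP5 encodes the permease for the acidic amino acids glutamate and aspartate. By counts it had 29.7 and 34.3 CPM in Log phase, 52.4 and 50.002 CPM on Day 2, 222 and 169.7 CPM on Day 3 and 237 and 250.1 CPM on Day 4, so that the 4 groups did not overlap and Day 2 stood near Log phase. It rose by 0.68 ± 0.17 on Day 2 (adjusted p = 0.00181), 2.61 ± 0.17 on Day 3 (3.65e-12) and 2.93 ± 0.17 on Day 4 (3.86e-13). The size of these changes is uncertain. The count table holds 8901 reads for DIP5, 50.4% of the 17654 reads in the gene table, while the other 9 members had 96.5% to 100.3%, and in Log phase and on Day 2 the tailed reads of DIP5 outnumbered its counts, at 138% to 226% of them. With tailed reads in place of all reads, DIP5 had 121 and 103 CPM in Log phase, 211 and 253 CPM on Day 2, 383 and 404 CPM on Day 3 and 437 and 483 CPM on Day 4. Its rise was then 1.05 ± 0.17 on Day 2, 1.81 ± 0.17 on Day 3 and 2.04 ± 0.17 on Day 4, larger on Day 2 and smaller later than by counts, and still called on each day.

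**Figure D2:**
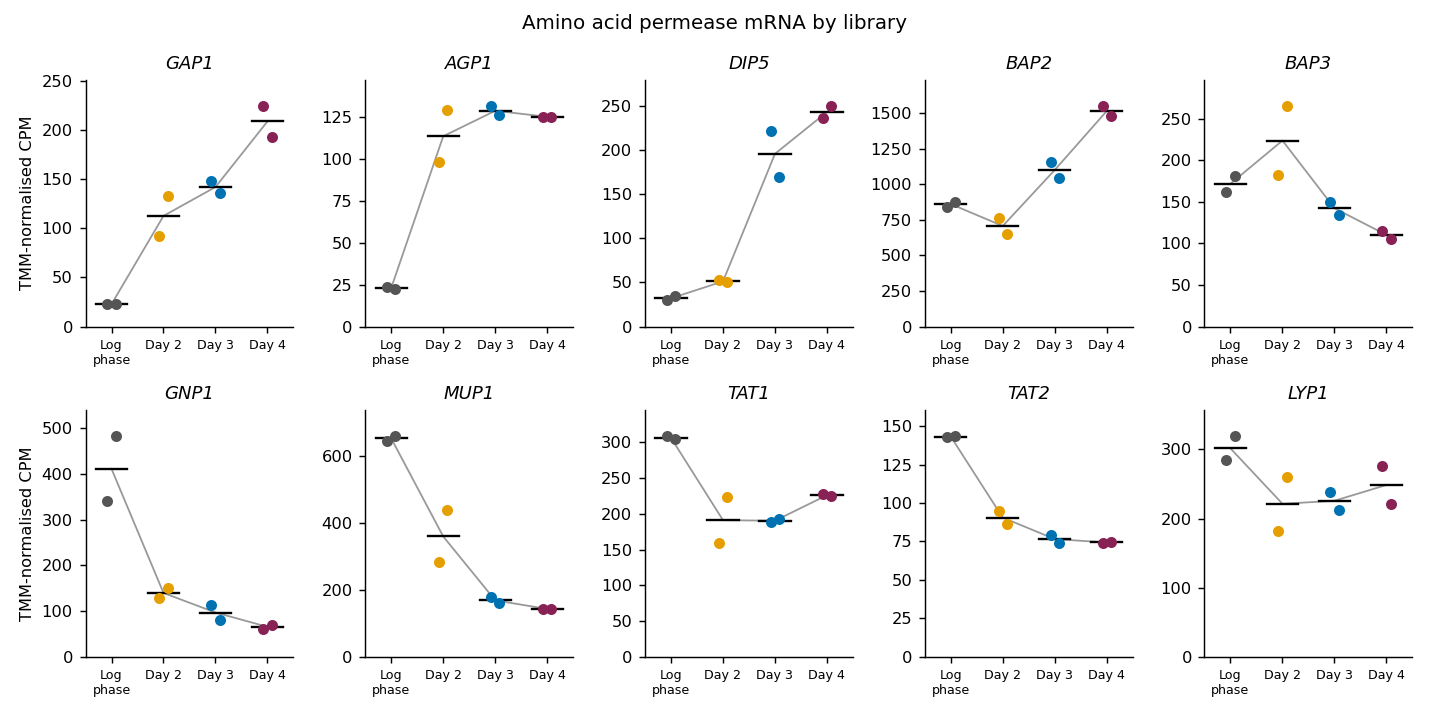
TMM-normalised CPM of the 10 permease genes in each library (points) with group means (bars), from Log phase to Day 4, each panel on its own axis from 0. GAP1 climbs to 224 and 193 CPM on Day 4, AGP1 levels off at 125 CPM, GNP1 and MUP1 descend, and BAP2 reaches 1550.2 and 1481 CPM on Day 4. The lower Day 2 mean of BAP2 was not called against Log phase.

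GNP1 and MUP1 were the members that fell most. GNP1, a glutamine permease gene, had 340.2 and 482 CPM in Log phase, 129 and 149.9 CPM on Day 2, 113 and 80.5 CPM on Day 3 and 60.6 and 70.3 CPM on Day 4. All 6 colony libraries were below both Log phase libraries, and no group overlapped the next. GNP1 fell by 1.56 ± 0.18 on the log2 scale on Day 2 (adjusted p = 1.77e-07), by 2.09 ± 0.19 on Day 3 (8.42e-10) and by 2.65 ± 0.19 on Day 4 (1.52e-11), the last a level 6.28-fold lower. In tailed reads the Day 2 decrease was smaller, −0.90 ± 0.18 (adjusted p = 0.00016).

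MUP1 encodes the high-affinity methionine permease, and this strain, deleted for MET15, depends on methionine from outside. MUP1 had 645 and 657 CPM in Log phase, 281 and 436 CPM on Day 2, 177 and 159 CPM on Day 3 and 141 and 144 CPM on Day 4. The groups did not overlap, although the Day 2 replicates stood far apart. MUP1 fell by 0.86 ± 0.17 on Day 2 (adjusted p = 0.000146), 1.95 ± 0.17 on Day 3 (7.57e-10) and 2.19 ± 0.18 on Day 4 (9.36e-11), the last a level 4.57-fold lower. Without Day 2 replicate 1 the Day 2 change of MUP1 was −0.57 and without Day 2 replicate 2 it was −1.21, and both were called. Scaling to total counts alone gave −0.47, also called.

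BAP2 and BAP3 encode branched-chain amino acid permeases, for leucine, isoleucine and valine, of which this leu2 strain needs leucine from its medium. BAP2 had 844 and 879.5 CPM in Log phase, 767 and 648 CPM on Day 2, 1161 and 1042 CPM on Day 3 and 1550.2 and 1481 CPM on Day 4. BAP3 had 162 and 181 CPM in Log phase, 182 and 265 CPM on Day 2, 150.3 and 134 CPM on Day 3 and 115 and 106 CPM on Day 4. BAP2 was lowest and BAP3 highest on Day 2, and from there they moved apart. BAP2 rose by 0.81 ± 0.14 on Day 4 (adjusted p = 1.62e-05) and BAP3 fell by 0.64 ± 0.17 (0.00161), both without overlap of the groups.

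The earlier differences of this pair from Log phase were smaller. On Day 3 the BAP2 change was 0.35 ± 0.14 (adjusted p = 0.0283), a call lost without Log phase replicate 1 (0.33, adjusted p = 0.13), Log phase replicate 2 (0.39, 0.0752), Day 3 replicate 1 (0.28, 0.165), Day 4 replicate 1 (0.35, 0.0538) or Day 4 replicate 2 (0.35, 0.0543). The Day 2 change of BAP2 was −0.29 ± 0.14 and not called (adjusted p = 0.0872), but was −0.41 and called without Day 2 replicate 1 (0.0158), −0.31 and called by DESeq2 (0.0459), and 0.09 with scaling to total counts alone. BAP3 had changes of 0.38 ± 0.17 on Day 2 (adjusted p = 0.0547) and −0.27 ± 0.17 on Day 3 (0.155), neither called. The Day 2 change of BAP3 became 0.63 and called without Day 2 replicate 1 (0.000975), 0.43 and called in tailed reads (0.0379), 0.39 and called with no filter (0.0431) and 0.77 and called with scaling to total counts alone (0.00074). Under that scaling the Day 3 change of BAP3 was 0.13 and its Day 4 change −0.20, neither called (0.513 and 0.307).

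The ratio of BAP2 to BAP3 shows the divergence within each library. It was 5.20 and 4.86 in Log phase, 4.21 and 2.44 on Day 2, 7.72 and 7.76 on Day 3 and 13.5 and 14.0 on Day 4. The ratio of GNP1 to AGP1, the other pair of close relatives, fell from each group to the next, at 14.5 and 21.3 in Log phase, 1.32 and 1.16 on Day 2, 0.862 and 0.640 on Day 3 and 0.485 and 0.563 on Day 4. Such ratios do not depend on the scaling between libraries. By counts GNP1 was above AGP1 in Log phase and on Day 2 and below it in all 4 libraries of Day 3 and Day 4. In tailed reads the ratio of GNP1 to AGP1 was smaller from the start, at 5.78 and 7.83 in Log phase, and GNP1 was already below AGP1 on Day 2 (0.748 and 0.676), as on Day 3 (0.433 and 0.501) and Day 4 (0.289 and 0.273).

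TAT1, TAT2 and LYP1 varied least over the groups, with TAT2 spanning 0.94, TAT1 0.70 and LYP1 0.47 on the log2 scale. TAT1, a permease gene for tyrosine, tryptophan and branched-chain amino acids, had 308 and 304 CPM in Log phase, 159 and 224 CPM on Day 2, 188 and 193 CPM on Day 3 and 228 and 224 CPM on Day 4. It fell by 0.68 ± 0.16 on Day 2 (adjusted p = 0.000845), 0.69 ± 0.16 on Day 3 (0.000522) and 0.44 ± 0.16 on Day 4 (0.0156), with every colony library below Log phase. With scaling to total counts alone its Day 4 change was 0.003 and not called. The Day 4 call of TAT1 was lost without Log phase replicate 1 (−0.43, adjusted p = 0.0677), Log phase replicate 2 (−0.45, 0.0564), Day 4 replicate 1 (−0.45, 0.0728) or Day 4 replicate 2 (−0.43, 0.086), and in tailed reads (−0.22, 0.336). In tailed reads the Day 2 change of TAT1 was −0.48 and not called (0.0527).

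TAT2, the gene of the high-affinity tryptophan permease, had 143 CPM in both Log phase libraries, 94.9 and 86.1 CPM on Day 2, 79.2 and 73.8 CPM on Day 3 and 74.1 and 74.5 CPM on Day 4. All colony libraries were below Log phase and close to each other. TAT2 fell by 0.66 ± 0.15 on Day 2 (adjusted p = 0.00057), 0.90 ± 0.15 on Day 3 (1.05e-05) and 0.95 ± 0.15 on Day 4 (4.92e-06), and its Day 2 change in tailed reads was −0.32 and not called (0.148).

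LYP1, the lysine permease gene, had 284 and 319 CPM in Log phase, 182 and 260.2 CPM on Day 2, 238 and 213 CPM on Day 3 and 276 and 221 CPM on Day 4. The colony libraries were all below Log phase, yet the closest, 276 CPM on Day 4 and 284 CPM in Log phase, nearly met. LYP1 fell by 0.44 ± 0.17 on Day 2 (adjusted p = 0.0296) and 0.42 ± 0.17 on Day 3 (0.0327), and its Day 4 change of −0.28 ± 0.17 was not called (0.141). That change was −0.25 and called in a fit of Day 4 and Log phase only (0.0428), called without Day 2 replicate 2 (0.0487), and 0.16 with scaling to total counts alone. Both calls of LYP1 were lost in tailed reads (−0.23 on Day 2 and −0.28 on Day 3) and when Log phase replicate 1 (−0.52 on Day 2, −0.50 on Day 3) or replicate 2 (−0.36 and −0.33) was left out. The Day 2 call was also lost without Day 2 replicate 1 (−0.21), and in a fit of Day 2 and Log phase only (−0.44, adjusted p = 0.054), and the Day 3 call without Day 3 replicate 1 (−0.50) or replicate 2 (−0.34). With scaling to total counts alone, LYP1, TAT1 and TAT2 had changes of −0.06, −0.29 and −0.28 on Day 2, none called, and LYP1 and TAT1 had changes of −0.02 and −0.29 on Day 3, also not called.

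Between colony days, DIP5, BAP2 and GAP1 rose and MUP1, GNP1 and BAP3 fell. AGP1, TAT1, TAT2 and LYP1 had no called change between colony days with all libraries in the fit, but each had 1 or more under an alternative. On Day 3 against Day 2, 5 of 10 members were called, 2 higher and 3 lower, against 49.4% of all genes tested, 24.2% higher and 25.2% lower. DIP5 rose by 1.94 (adjusted p = 3.31e-09; 0.76 in tailed reads, also called) and BAP2 by 0.64 (0.000594), and MUP1 fell by 1.09 (1.4e-05). BAP3 fell by 0.65 (0.00238) and GNP1 by 0.53 (0.0199). The BAP3 call was lost without Day 2 replicate 2 (−0.36, adjusted p = 0.058), and the GNP1 call without Day 2 replicate 2 (−0.42, 0.0795) or Day 3 replicate 2 (−0.31, 0.268), and in a fit of those days only (−0.50, 0.0582). The split of the calls thus rests on Day 2 replicate 2. Without it 5 members were again called, but 4 were higher and 1 lower, since GAP1 (0.62, adjusted p = 0.00293; 0.33 and 0.105 with all libraries) and AGP1 (0.39, 0.0472; 0.18 and 0.361) were then called, when 1385 genes of all tested were higher and 1368 lower. TAT2 was called in tailed reads (−0.47, 0.0405; −0.24 and 0.19 in all reads).

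On Day 4 against Day 2, 6 members were called, 3 higher and 3 lower, against 63.0% of all genes, 30.5% higher and 32.4% lower. DIP5 rose by 2.25 (adjusted p = 9.77e-11; 0.99 in tailed reads, also called), BAP2 by 1.10 (4.69e-07) and GAP1 by 0.89 (7.24e-05). MUP1 fell by 1.33 (5.26e-07), GNP1 by 1.09 (2.29e-05) and BAP3 by 1.02 (1.48e-05). Without Day 2 replicate 2, 8 members were called, 5 higher and 3 lower, with TAT1 (0.51, adjusted p = 0.0048; 0.24 and 0.189 with all libraries) and LYP1 (0.44, 0.0211; 0.17 and 0.4 with all libraries) added. In tailed reads 7 were called, 3 higher and 4 lower, with TAT2 added (−0.62, 0.00613; −0.28 and 0.102 in all reads).

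On Day 4 against Day 3, 3 members were called, 2 higher and 1 lower, against 26.5% of all genes, 11.8% higher and 14.6% lower. These were GAP1 (0.56, adjusted p = 0.0156; 0.50 in tailed reads, 0.0772), BAP2 (0.46, 0.0176) and GNP1 (−0.56, 0.0282). None of the 3 held in every alternative. GAP1 lost its call without Day 3 replicate 1 (0.61) or 2 (0.49) or Day 4 replicate 1 (0.44) or 2 (0.66), BAP2 without Day 3 replicate 2 (0.38) or Day 4 replicate 1 (0.42) or 2 (0.49), and GNP1 without Day 3 replicate 1 (−0.30) or Day 4 replicate 1 (−0.46) or 2 (−0.68). BAP3 was not called (−0.37 ± 0.17, adjusted p = 0.109), but it was in tailed reads (−0.67, 0.00891), in a fit of those days only (−0.34, 0.0396) and without either Day 2 library (0.0397 and 0.0235). DIP5 (0.31 ± 0.15, 0.141) was called in the fit of those days only (0.34, 0.0387).

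Summed over the 10 genes, permease mRNA was 2925 ± 173 CPM in Log phase, and in colonies 2209 ± 242 CPM on Day 2, 2467 ± 199.7 CPM on Day 3 and 2959 ± 100.5 CPM on Day 4 (SD, n = 2). By counts, the Day 4 total after TMM normalisation lay within the spread of the Log phase total, but not by 2 other measures. In tailed reads the sum was 2604 ± 64.3 CPM in Log phase, 2578 ± 277 CPM on Day 2, 2654 ± 14.5 CPM on Day 3 and 3269.8 ± 66.6 CPM on Day 4. As a share of all counts it was 0.332% and 0.319% on Day 4, against 0.231% and 0.242% in Log phase, so that by both measures each Day 4 library stood above each Log phase library. The make-up of the sum changed as well. BAP2 was the most abundant member in all 8 libraries, with 30.1% and 28.9% of the sum in Log phase, 37.6% and 27.2% on Day 2, 44.5% and 44.8% on Day 3 and 51.2% and 51.3% on Day 4. MUP1, next in Log phase with 23.0% and 21.6%, held 13.8% and 18.3% on Day 2, 6.80% and 6.84% on Day 3 and 4.66% and 4.98% on Day 4. GNP1 held 2.00% and 2.43% on Day 4, against 12.1% and 15.8% in Log phase.

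The least abundant members of Log phase moved up. GAP1 held 7.39% and 6.68% of the sum on Day 4, against 0.800% and 0.753% in Log phase. DIP5, whose counts are uncertain, held 7.82% and 8.66% on Day 4, against 1.06% and 1.13% in Log phase. By tailed reads the DIP5 share was 13.2% and 15.0% on Day 4, against 4.73% and 3.88% in Log phase. In Log phase the order of group means was BAP2, MUP1, GNP1, TAT1, LYP1, BAP3, TAT2, DIP5, AGP1 and GAP1. TAT1 and LYP1 (306 ± 2.85 and 301 ± 24.6 CPM) and AGP1 and GAP1 (23.0 ± 0.57 and 22.7 ± 0.37 CPM) were within their spread of each other there. On Day 2 it was BAP2, MUP1, BAP3, LYP1, TAT1, GNP1, AGP1, GAP1, TAT2 and DIP5, with BAP3 and LYP1 (224 ± 58.5 and 221 ± 55.1 CPM) and AGP1 and GAP1 (113 ± 22.1 and 112 ± 28.6 CPM) within their spread, TAT1 (191 ± 45.9 CPM) within 1 SD of BAP3 and of LYP1, and GNP1 (140 ± 14.6 CPM) and TAT2 (90.5 ± 6.24 CPM) within 1 SD of GAP1. On Day 3 it was BAP2, LYP1, DIP5, TAT1, MUP1, BAP3, GAP1, AGP1, GNP1 and TAT2, with BAP3 and GAP1 (142 ± 11.4 and 142 ± 8.26 CPM) within their spread, and LYP1 (226 ± 18.0 CPM), TAT1 (190.3 ± 3.17 CPM) and MUP1 (168 ± 13.0 CPM) within 1 SD of DIP5 (196 ± 37.3 CPM). TAT2 (76.5 ± 3.84 CPM) was within 1 SD of GNP1 (96.8 ± 23.1 CPM) on that day. On Day 4 the order was BAP2, LYP1, DIP5, TAT1, GAP1, MUP1, AGP1, BAP3, TAT2 and GNP1. DIP5 and TAT1 (243 ± 9.30 and 226 ± 2.32 CPM) were within 1 SD of LYP1 (249 ± 39.5 CPM) there, and TAT1 within 1 SD of GAP1 (208 ± 21.9 CPM). These orders are by counts and differ in tailed reads. DIP5 then had 232 ± 30.2 CPM on Day 2, between LYP1 (252 ± 62.9 CPM) and BAP3 (213 ± 29.5 CPM). On Day 4 it had 460 ± 31.9 CPM, above LYP1 (288 ± 38.9 CPM). In Log phase GNP1 had 203 ± 18.0 CPM in tailed reads, below LYP1 (295 ± 38.2 CPM) and TAT1 (282 ± 3.38 CPM).

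**Figure D3:**
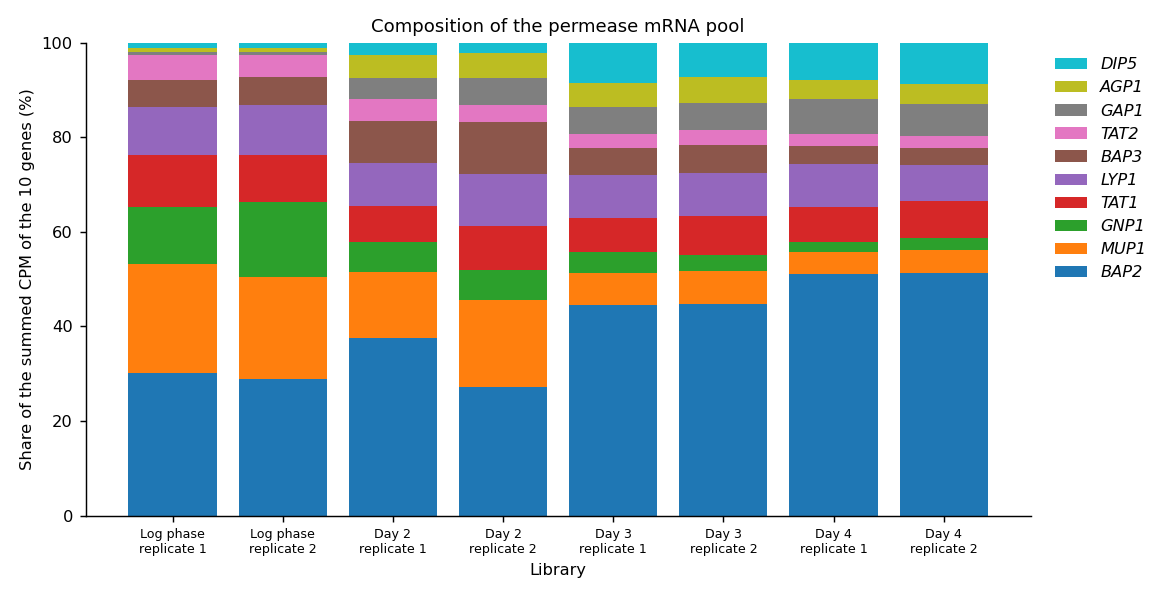
Share (%) of each permease gene in the summed CPM of the 10 genes, 1 stacked bar per library from Log phase to Day 4. The BAP2 segment grows to 51.2% and 51.3% on Day 4, the MUP1 and GNP1 segments shrink, and those of GAP1, AGP1 and DIP5 appear at the top in colonies.

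Among the members, the pair most alike in course was TAT1 and LYP1, with a root mean square difference of 0.15 between their log2 CPM centred over the 8 libraries. GNP1 and MUP1 differed by 0.31 and GAP1 and AGP1 by 0.32, while GAP1 and GNP1 were farthest apart at 2.20. BAP2 and BAP3 differed by 0.80, with a correlation of −0.94 across the 8 libraries. All members share these libraries and their scaling, and the 8 points form 4 groups. Among 3087 other genes with a mean of at least 50 CPM, those nearest to GAP1 were PET10, a lipid droplet protein gene (0.19), GDB1, which encodes glycogen debranching enzyme (0.21), and GSC2, a glucan synthase gene (0.22). The median of all candidates was 1.31. For DIP5, the nearest were ECM10, a mitochondrial chaperone gene, FOX2, a peroxisomal fatty acid oxidation gene, and QCR8, a respiratory chain gene, each at 0.17 with a median of 1.35, and for GNP1 they were RPS27B (0.16), STD1, a glucose signalling gene (0.17), and RPL27A (0.17) with a median of 0.98. The nearest genes of DIP5 rest on its counts, whose course differed from that of its tailed reads (0.68, 2.61 and 2.93 against 1.05, 1.81 and 2.04 as log2 changes from Log phase), so they are as uncertain as those counts. RPS27B and RPL27A are ribosomal protein genes with close paralogs, so their own counts may be uncertain, which was not tested.

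Poly(A) tails had their highest group mean on Day 2 for 7 of the 10 permease mRNAs, the exceptions being GNP1, TAT1 and DIP5. Of all 5388 genes tested, 62.3% also had their highest mean on Day 2, and the median difference of all genes from Log phase was 0.96 nt on that day. AGP1 mRNA had mean tails of 25.4 and 23.8 nt in Log phase, 27.0 and 26.6 nt on Day 2, 22.9 and 19.5 nt on Day 3 and 20.6 and 19.7 nt on Day 4. TAT2 mRNA had 17.2 and 16.7 nt in Log phase, 20.6 nt in both Day 2 libraries, 15.8 and 15.6 nt on Day 3 and 16.4 and 15.1 nt on Day 4. For both, the Day 2 libraries lay above all other libraries. GAP1 mRNA had 21.1 and 26.6 nt in Log phase, from 87 and 85 tailed reads, 24.9 and 26.9 nt on Day 2, 22.0 and 20.8 nt on Day 3 and 19.7 and 19.4 nt on Day 4. The Log phase libraries of GAP1 stood apart and overlapped its Day 2 libraries. On Day 3, 5 of 10 members had shorter and none longer tails than on Day 2, when 22.0% of the 5388 genes tested were called, 21.8% shorter and 0.241% longer. On Day 4 it was 7 members, all shorter, against 32.9% of genes called, 32.0% shorter and 0.947% longer (limma, adjusted p over all genes tested). The median difference of the 10 was −3.38 nt on Day 3 and −3.84 nt on Day 4, beside −1.95 and −2.17 nt for all genes.

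On Day 4 against Day 2, tails were shorter for AGP1 (−6.66 ± 1.19 nt, adjusted p = 0.00715), GAP1 (−6.36 ± 1.53 nt, 0.0169), TAT2 (−4.81 ± 0.74 nt, 0.0057), MUP1 (−4.37 ± 0.92 nt, 0.0116), BAP2 (−3.88 ± 0.90 nt, 0.015), BAP3 (−3.80 ± 0.85 nt, 0.0135) and LYP1 (−2.71 ± 0.86 nt, 0.0405). These differences were thus found in genes whose mRNA rose (GAP1, BAP2), fell (MUP1, BAP3) or had no called change with all libraries and all reads (AGP1, TAT2, LYP1) over the same days. The call of LYP1 held in 2 of 12 alternatives, those that changed the minimum of tailed reads. Without Day 2 replicate 2 the differences of GAP1, BAP2, MUP1 and LYP1 were −5.33, −3.04, −3.24 and −2.02 nt, without Day 4 replicate 1 those of GAP1, MUP1 and LYP1 were −6.46, −4.12 and −2.11 nt, and without Day 4 replicate 2 those of GAP1, BAP2, BAP3 and LYP1 were −6.25, −3.61, −3.07 and −3.32 nt, none of them called. The LYP1 call was also lost without weights, with a replicate block, without Day 2 replicate 1 (−3.40 nt), and without any 1 library of Log phase or Day 3, where its difference of −2.71 nt stayed the same.

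On Day 3 against Day 2, tails were shorter for AGP1 (−5.63 ± 1.19 nt, adjusted p = 0.0187), TAT2 (−4.87 ± 0.74 nt, 0.0108), BAP2 (−3.95 ± 0.90 nt, 0.0221), MUP1 (−3.45 ± 0.92 nt, 0.0341) and LYP1 (−3.32 ± 0.86 nt, 0.0307). TAT2 lost its call only without Day 3 replicate 1 (−4.99 nt, adjusted p = 0.0514). AGP1 lost it without Day 2 replicate 1 (−5.44 nt), Day 2 replicate 2 (−5.81 nt) or Day 3 replicate 2 (−3.92 nt), and BAP2 without Day 2 replicate 2 (−3.12 nt) or Day 3 replicate 1 (−3.18 nt). LYP1 lost it without any 1 library of either day (−4.01, −2.63, −3.56 and −3.08 nt), and MUP1 without Day 2 replicate 2 (−2.33 nt), either Day 3 library (−3.69 and −3.20 nt) or either Log phase library (−3.45 nt for each).

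**Figure D4:**
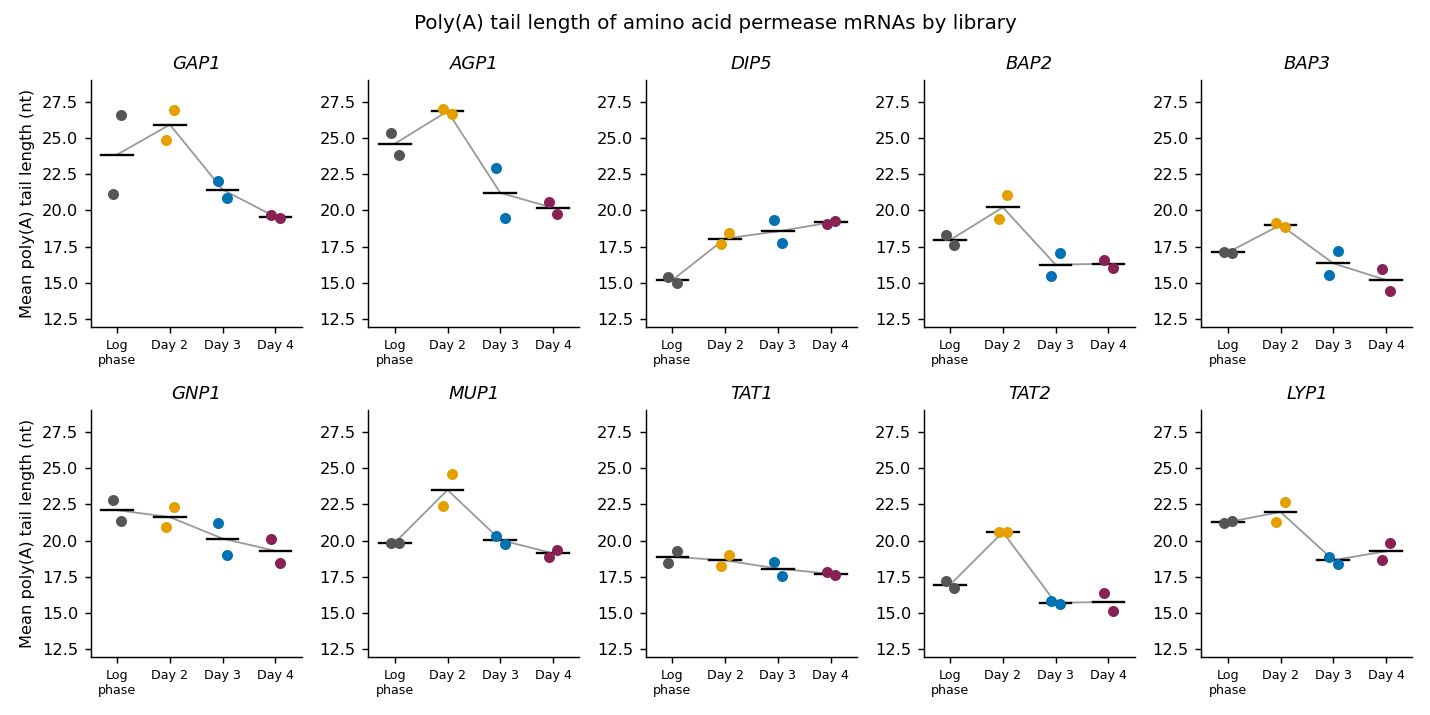
Mean poly(A) tail length (nt, axis from 12 nt) of the 10 permease mRNAs in each library (points) with group means (bars), from Log phase to Day 4. For TAT2, MUP1, BAP2 and BAP3 the Day 2 libraries stand above all others, and DIP5 climbs to 19.1 and 19.3 nt on Day 4 while the mean of each other member on Day 4 is below its Log phase mean. The reads assigned to DIP5 are uncertain.

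Against Log phase, no member's tail change was called on Day 2 or Day 3 by limma, when 1.19% of all genes were on Day 2 (1.10% longer, 0.0928% shorter) and 2.25% on Day 3 (0.223% longer, 2.02% shorter), and none was called without weights either. An unadjusted p under 0.05 was found for 4 members and 22.7% of all genes on Day 2, and for 3 members and 21.7% of all genes on Day 3. TAT2 on Day 2 (3.62 ± 0.74 nt, adjusted p = 0.0526) was called when each library needed 30 tailed reads (0.0427). On Day 4, 1 member was called, against 9.80% of all genes, and 5 members and 28.9% of all genes had an unadjusted p under 0.05. That member was DIP5, whose tails lengthened by 3.97 ± 0.81 nt (adjusted p = 0.0233), when 1.19% of all genes had longer tails and 8.61% shorter ones. The reads assigned to DIP5 are uncertain here too, with tailed reads at 190% and 138% of its counts in Log phase and 74.5% and 77.4% on Day 4. Whether this bears on its tail length was not tested. DIP5 had 15.4 and 15.0 nt in Log phase, 17.7 and 18.4 nt on Day 2, 19.3 and 17.8 nt on Day 3 and 19.1 and 19.3 nt on Day 4, with all colony libraries above Log phase. Its call was lost without Log phase replicate 1 (4.20 nt, adjusted p = 0.116) or 2 (3.73 nt, 0.0906) or Day 4 replicate 1 (4.07 nt, 0.08) or 2 (3.87 nt, 0.109). AGP1 on Day 4 (−4.51 ± 1.23 nt, 0.0519) was just short of a call, and had one at the minimum of 30 tailed reads (0.0433), with a replicate block (0.043) and without either Day 3 library (0.0343 and 0.0351). Between Day 4 and Day 3 limma called 0 members and 0% of genes, with 0 members and 439 of 5388 genes at an unadjusted p under 0.05.

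Mean tail length over all libraries ordered the members from AGP1 (23.0 nt), GAP1 (22.1), GNP1 (21.4), MUP1 (21.0) and LYP1 (20.3) to TAT1 and DIP5 (18.4 each), TAT2 (17.5) and BAP2 and BAP3 (17.3 each). These means weight each library by its reads, so the order mixes the growth stages. The share of reads with a tail was 25.4% for GNP1, the lowest of the 10, and 39.5% to 51.1% for the others, with a median of 39.1% over genes with at least 100 reads. GNP1 had 26.1% and 20.5% tailed reads in Log phase, 36.2% and 35.1% on Day 2, 23.7% and 34.3% on Day 3 and 22.7% and 21.2% on Day 4.

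**Figure D5:**
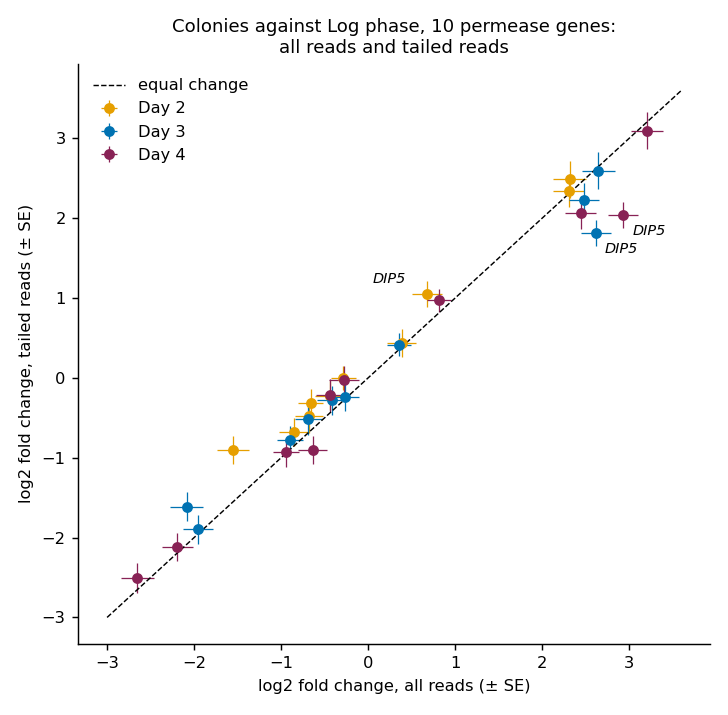
Log2 fold change against Log phase (± SE) of the 10 permease genes from all reads (horizontal axis) and from tailed reads alone (vertical axis), for Day 2, Day 3 and Day 4, with a dashed line of equal change. DIP5 lies above the line on Day 2 (1.05 in tailed reads) and below it on Day 3 (1.81) and Day 4 (2.04).

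Other genes of amino acid transport were set beside these in 4 lists. Their counts against Log phase are given as higher and lower, and are read against the shares of all genes tested and the all-gene medians above. Of 14 other plasma membrane amino acid and peptide transporters, 5 were higher and 3 lower on Day 2, 8 higher and 4 lower on Day 3, and 8 higher and 3 lower on Day 4, with medians of 0.61, 1.32 and 1.73, while 28.3% of all genes were higher and 28.2% lower on Day 2, 34.5% and 34.4% on Day 3, and 37.2% and 37.0% on Day 4. Without Log phase replicate 2 the Day 2 count was 5 in all. PUT4, the high-affinity proline permease gene, rose on each day, with 50.3 and 43.5 CPM in Log phase, 282 and 269 CPM on Day 2, 851 and 967 CPM on Day 3 and 1492 and 1376 CPM on Day 4, changes of 2.55 ± 0.16, 4.28 ± 0.16 and 4.93 ± 0.17. On Day 4 PUT4 thus stood beside BAP2 and far above GAP1. OPT2, an oligopeptide transporter gene, rose by 1.56 ± 0.23, 3.33 ± 0.22 and 3.23 ± 0.22 on the 3 days, and MUP3, the low-affinity methionine permease gene, by 2.81 ± 0.20 on Day 4, when MUP1 was low. OPT1, the glutathione and oligopeptide transporter gene, fell by 2.07 ± 0.21 on Day 2 and 2.65 ± 0.22 on Day 3. AGP2 rose by 1.10 ± 0.18, 2.19 ± 0.18 and 2.92 ± 0.19, but its counts were 22.5% of its reads in the gene table, and the values are uncertain. In tailed reads the changes of AGP2 were 1.88, 1.56 and 2.04. CAN1 and AGP3, also in this list, had counts at 24.1% and 17.6% of their reads. Mean CPM of CAN1 went from 6.45 in Log phase to 18.5 on Day 4 by counts, but from 82.8 to 37.7 in tailed reads. For AGP3 it went from 1.78 to 1.82 by counts and from 6.10 to 26.5 in tailed reads. The tallies and medians of this list include these uncertain genes.

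Of 12 genes of the SPS sensing pathway, 4 were higher and 3 lower on Day 2, 4 and 4 on Day 3, and 5 and 2 on Day 4, with medians of 0.01, −0.20 and 0.33. All genes had 28.3% higher and 28.2% lower on Day 2, 34.5% and 34.4% on Day 3, and 37.2% and 37.0% on Day 4. SSY1, the sensor gene, had 2.30 and 3.80 CPM in Log phase, 14.2 and 10.4 CPM on Day 2, 18.3 and 17.8 CPM on Day 3 and 21.7 and 20.8 CPM on Day 4, and rose by 2.01 ± 0.33, 2.57 ± 0.32 and 2.81 ± 0.32. STP2 rose by 1.10 ± 0.16, 1.39 ± 0.16 and 1.45 ± 0.16, and its paralog STP1 by 1.13 on Day 4. The casein kinase genes fell, YCK1 by 0.93 ± 0.14 on Day 3 and YCK2 by 1.27 ± 0.26 on Day 3 and 2.31 ± 0.27 on Day 4. GRR1, an F-box protein gene, had 102 and 133 CPM in Log phase, 50.6 and 52.2 CPM on Day 2, 114 and 83.9 CPM on Day 3 and 123 and 129.8 CPM on Day 4. It fell by 1.19 ± 0.18 on Day 2 (by 0.60 in tailed reads, also called), and its changes of −0.25 ± 0.17 on Day 3 and 0.10 ± 0.17 on Day 4 were not called (adjusted p = 0.202 and 0.588), with overlapping libraries. SSY5, the protease gene of the sensor, rose by 1.41 ± 0.31 on Day 2 by counts, which hold 17.4% of its reads, but its change in tailed reads was 0.03 and not called (adjusted p = 0.921).

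Of 16 genes for permease export, ubiquitination and endocytosis, 3 were higher and 3 lower on Day 2, 8 and 4 on Day 3, and 11 and 2 on Day 4, with medians of 0.14, 0.45 and 0.69. The shares of all genes were again 28.3% higher and 28.2% lower on Day 2, 34.5% and 34.4% on Day 3, and 37.2% and 37.0% on Day 4. CSR2, an arrestin adaptor gene of Rsp5, had 24.3 and 24.2 CPM in Log phase, 189.6 and 154 CPM on Day 2, 475 and 451 CPM on Day 3 and 726 and 734 CPM on Day 4, and rose by 2.82 ± 0.17, 4.25 ± 0.17 and 4.91 ± 0.17. AUA1, a small gene named in amino acid uptake under ammonia, rose by 1.93 ± 0.31, 3.78 ± 0.29 and 4.86 on the 3 days. SHR3, which encodes the chaperone that lets permeases leave the endoplasmic reticulum, fell by 1.34 ± 0.15 on Day 3 and 1.77 on Day 4. ROG3, an arrestin adaptor gene, rose by 0.98 ± 0.22 and BUL2, an Rsp5 adaptor gene, fell by 1.02 ± 0.22 on Day 2, calls not made in tailed reads (0.56 for ROG3 and −0.73 for BUL2). DOA4, a deubiquitinase gene with counts at 41.8% of its reads and therefore uncertain, rose by 1.49 ± 0.18 on Day 3 and 1.92 on Day 4 by counts, and by 1.10 and 1.51 in tailed reads. RSP5 and LST7 of this list are uncertain too, with counts at 28.8% and 11.2% of their reads. Mean CPM of RSP5 was 24.4 in Log phase and 27.2 on Day 4 by counts, but 157 and 67.9 in tailed reads. For LST7 it was 4.00 and 8.78 by counts, and 10.3 and 26.5 in tailed reads.

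Of 16 genes listed with the vacuolar amino acid transporters, 7 were higher and 4 lower on Day 2, 10 and 3 on Day 3, and 10 and 4 on Day 4, with medians of 0.54, 0.77 and 0.87. Over all genes these shares were 28.3% and 28.2% on Day 2, 34.5% and 34.4% on Day 3, and 37.2% and 37.0% on Day 4. Without Log phase replicate 2, without Day 2 replicate 1, or in tailed reads, the Day 2 count was 7 in all. RTC2, a gene for the export of cationic amino acids from the vacuole, had 12.9 and 10.8 CPM in Log phase, 88.2 and 78.8 CPM on Day 2, 298 and 289 CPM on Day 3 and 377 and 365 CPM on Day 4, and rose by 2.81 ± 0.18, 4.63 ± 0.18 and 4.96 ± 0.18. AVT3 and AVT4, whose products also export amino acids from the vacuole, rose by 1.51 ± 0.18 and 0.91 ± 0.16 on Day 2 and by 2.69 ± 0.18 and 1.60 ± 0.16 on Day 4. In tailed reads the Day 2 rise of AVT3 was 0.54 (adjusted p = 0.0451). VBA5 rose by 4.10 ± 0.39 on Day 4 at low levels, 34.0 and 25.7 CPM against 1.87 and 1.58 CPM in Log phase. Whether the VBA5 product lies at the vacuole was not checked. VBA2 rose by 1.31 ± 0.17 on Day 3, and VBA4 fell by 0.92 ± 0.17 on Day 2.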

How the data were processed

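For 4 growth groups the authors deposited, per gene and library, raw read counts, tailed-read counts and mean tail length in nt (a signal value), from 75-base SOLiD PAT-seq of total RNA, per the labels' protocols. Their gene table gives positions and, pooled over the libraries, the deposited read counts, mean tail length and tailed fraction of reads. For the aligner, counter, tail rule and genome build, nothing is given in the sources used here. Of the 5813 genes in that table that the R64 annotation also holds, 99.8% had the same start and end. Of 5784 genes with at least 100 reads in the gene table, 80.5% had counts within 10% of those reads, 516 had under 60%, and 595 had more tailed reads than counts in a library.

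Counts of 5930 genes were tested in edgeR 4.0.16, using TMM scaling, the filterByExpr filter, a mean for each group, all 8 libraries and the quasi-likelihood F test (common biological coefficient of variation 0.128). Tail lengths of 5388 genes were tested in limma 3.58.1 with trended empirical Bayes, requiring 10 tailed reads in each library and weighting by tailed reads capped at 100. P-values were adjusted by the Benjamini-Hochberg method over all genes tested, with calls at 0.05. For edgeR, the SE is the size of the log2 fold change divided by the square root of its F. CPM are TMM-normalised. Both tests were run on data simulated from the models they assume, for Day 2 against Log phase only. Such runs do not check how real replicates spread. TMM factors were 0.825 and 0.794 for Log phase and 1.03 to 1.10 for colonies. Counts of 3, the least taken as detected, were 0.355 to 0.484 CPM, for counting error only. Replicates differed beyond sampling noise (chi-square per degree of freedom 6.62 to 32.5), and replicate numbers did not pair libraries, whose deviations correlated at −0.0349 to 0.00554.

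The 10 members, the 4 other lists and the tests were chosen with earlier results of these data known. All members are named, from each other list up to 4 called genes with the smallest p per comparison with Log phase, and for GAP1 and the 2 other members of widest range the 3 nearest genes by log2 CPM with a prior count of 2. Motifs and coding ends were read from the RefSeq R64 genome. Where along a gene its RNAs end was not analysed. Figures and sequence searches used Python 3.11.15 with Biopython 1.88, matplotlib 3.10.9, NumPy 2.4.6 and pandas 2.3.3, and the tests used R 4.3.3, with DESeq2 1.42.0 as an alternative. Other alternatives covered normalisation, the filter, weights, read minima, a replicate block, tailed reads, the groups in the fit and leaving out each library, in which case the remaining library of its group was given the spread of the rest.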

Additional observations from a re-analysis of the deposited data

How the results depend on the processing

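The directions of GAP1, AGP1, GNP1, MUP1, TAT2 and DIP5 expression against Log phase held in all 15 alternatives, and GAP1, AGP1, GNP1, MUP1 and DIP5 kept their calls in each. With scaling to total counts alone, the change turned to 0.093 for BAP2 on Day 2, 0.13 for BAP3 on Day 3, 0.0030 for TAT1 on Day 4 and 0.16 for LYP1 on Day 4, none of them called (the cause is the scaling itself, which raises all changes against Log phase). Without Day 2 replicate 2, the permease calls were 4 higher and 1 lower on Day 3 against Day 2 (2 and 3 with all libraries) and 5 higher and 3 lower on Day 4 against Day 2 (3 and 3). On Day 4 against Day 3, 3 permeases were called in the fit of all groups, 5 in a fit of the 2 groups compared, and 0 to 4 when 1 library was left out. For tail length, 1 permease was called on Day 2 against Log phase when each library needed 30 tailed reads (0 with the minimum of 10), and 2 on Day 4 against Log phase with that minimum, where the main count was 1. Leaving out 1 library gave 0 to 2 permeases called on Day 4 against Log phase, 1 to 5 on Day 3 against Day 2 (main count 5) and 3 to 6 on Day 4 against Day 2 (main count 7).

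Samples with the same replicate number shared only that number. A replicate block changed no permease call in expression. For tail length it gave 2 permeases on Day 4 against Log phase in place of 1, and 6 on Day 4 against Day 2, where LYP1 was no longer called (−2.71 nt, adjusted p = 0.0504). The counts over all genes against which the permeases are read also moved: for expression on Day 4 against Day 3, 1570 genes were called, and 608 to 998 without 1 library of those days. For tail length, the 64 genes called on Day 2 against Log phase were 143 at the higher minimum and 0 without weights, without a minimum, with the block or without any 1 library. The 121 on Day 3 against Log phase were 205, 28, 49 and 1 in the same order and as few as 0 with 1 library left out, the 528 on Day 4 against Log phase were as few as 0, the 1187 on Day 3 against Day 2 as few as 70, and the 1774 on Day 4 against Day 2 as few as 685. With 2 libraries per group, leaving out 1 can remove most tail calls. The cause of other changes was not tested.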
